A study of Homo sapiens with 5 samples.

Results

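The genes described here are those of the HLA class II pathway, through which a cell shows peptides from its endosomes to helper T cells: HLA-DRA, HLA-DPA1, HLA-DPB1, HLA-DMA, HLA-DMB, HLA-DOA, CD74, CTSS and CIITA. They were given as a list of 9 gene symbols, and every probe carrying one of those symbols (or an older symbol with the same Entrez identifier) was taken. This gave 12 probes of the 47317 on the array, and 9 genes of the 20045 with a named probe: 3 probes for CD74, a pair for HLA-DRA and 1 for each of the other 7 genes. The samples came from H9 cells, which are an established line of human embryonic stem cells, kept in E6, a defined medium that was changed daily. Total RNA was collected from undifferentiated cells at week 0 and from cells differentiating toward corneal epithelium at weeks 2, 4, 6 and 8. Each week is 1 Illumina HT-12 bead array of biotin-labelled cRNA, all 5 arrays lay on 1 chip, and the labels call every sample a non-replicate. There is therefore no spread between cultures to set a difference against, no test is given, and every statement compares single arrays of 1 cell line.

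Class II molecules are pairs of an alpha and a beta chain that are built in the endoplasmic reticulum around the invariant chain, CD74, which blocks the peptide groove and leads the complex to endosomes. There proteases such as cathepsin S (CTSS) cut the invariant chain down, HLA-DM removes the last fragment and helps a peptide settle in the groove, and HLA-DO holds HLA-DM back. Dendritic cells, macrophages and B cells carry the pathway at all times, while most epithelial cells turn it on under interferon gamma through CIITA, a coactivator that sits on a protein complex bound to the X and Y boxes of class II promoters.

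Those boxes can be read in the promoters of the genes themselves, and the sequences are shown so that the genes can be compared with each other. Windows of 250 bases before to 50 bases after the annotated start were taken from RefSeq (build GRCh38.p14), which gave 7 windows for 6 of the 9 genes, with HLA-DPA1 having a pair of windows. HLA-DRA, CIITA and CTSS are named only. A stretch of 80 bases is printed for each gene on the strand of the gene, 5′ to 3′, and the capitals mark CCNAGNNAC, the core of the X box searched on both strands, and CCAAT, the core of the Y box searched on both strands and written ATTGG where it lies in reverse. The letters of the X box core were chosen after these promoters had been read, so that choice favoured matches in these genes. The shares of all promoters given below are therefore no independent comparison.
CD74 (chr5:150412920-150412999, minus strand): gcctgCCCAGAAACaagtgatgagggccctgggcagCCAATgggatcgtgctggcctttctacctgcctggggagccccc
HLA-DMA (chr6:32953139-32953218, minus strand): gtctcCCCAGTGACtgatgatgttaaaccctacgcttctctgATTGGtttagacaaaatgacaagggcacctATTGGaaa
HLA-DMB (chr6:32941045-32941124, minus strand): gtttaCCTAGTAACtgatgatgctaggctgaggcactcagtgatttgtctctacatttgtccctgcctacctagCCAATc
HLA-DOA (chr6:33009621-33009700, minus strand): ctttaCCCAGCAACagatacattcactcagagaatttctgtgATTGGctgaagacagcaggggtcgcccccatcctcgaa
HLA-DPA1 (chr6:33073677-33073756, minus strand): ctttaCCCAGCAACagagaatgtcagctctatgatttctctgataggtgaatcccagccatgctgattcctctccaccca
HLA-DPB1 (chr6:33075886-33075965, plus strand): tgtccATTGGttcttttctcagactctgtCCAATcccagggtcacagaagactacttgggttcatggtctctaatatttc

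The X box core was found in 5 of the 6 genes, with its first base at -84 in CD74, -91 in HLA-DMB, -102 in HLA-DPA1, -104 in HLA-DOA and -116 in HLA-DMA, which held another copy at -188 (positions in bases from the annotated start). Of 35116 promoters of the same length in the table, 16.5% held the X box core and 34.6% held CCAAT. A forward X box core followed by CCAAT on either strand, starting within 60 bases of it, was present in 0.615% of all promoters (216). Among the genes here it was present in CD74, where the starts lay 31 bases apart, and in HLA-DMA and HLA-DOA, where they lay 37 bases apart. In HLA-DMB the only CCAAT lay at -22, too far from the X box core to count as such a pair. HLA-DPB1 held CCAAT at -99 and -75 and no match to the X box core, and the other HLA-DPA1 window held neither. A match is a description of letters, and no match says only that these letters are not in the window.

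**Figure D1:**
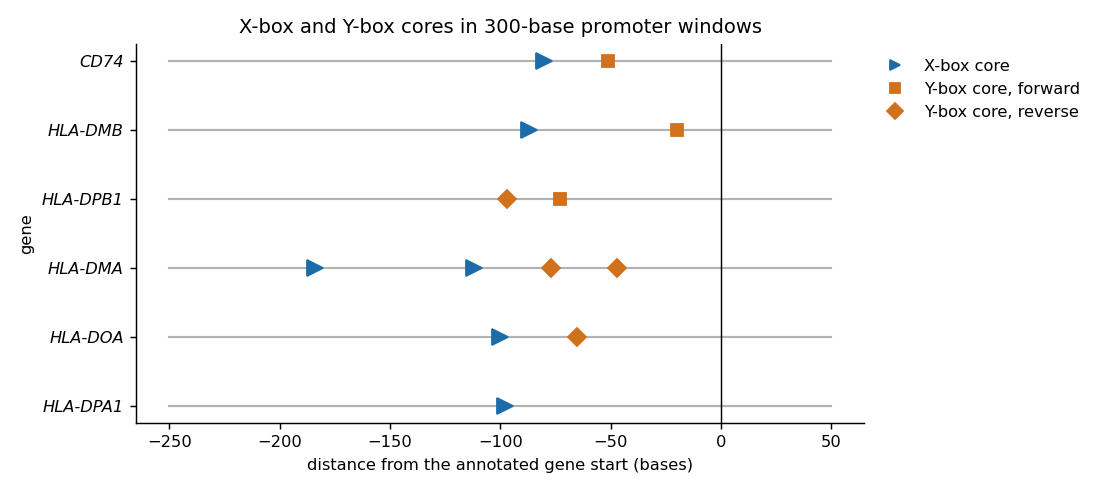
Positions of the X box and Y box cores in the 300-base promoter windows, with the distance from the annotated gene start in bases on the horizontal axis. The vertical axis has 1 line per gene, and the pair of HLA-DPA1 windows shares a line. Triangles stand for the X box core, squares for a forward and diamonds for a reverse CCAAT, and in CD74, HLA-DMA and HLA-DOA both cores lie 31 or 37 bases apart.

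The deposited value of a probe is its mean bead signal on a linear scale, from which no background had been taken, and above background means here a detection p-value under 0.01. The number of probes above background ran from 16993 on the week 0 array to 18358 on the week 8 array, and the lowest signal above background lay between 151.1 and 162.6 depending on the array. Most of the class II signals stood close to that limit. The cell types in the labels were checked on their markers. Of 5 stem cell markers, 2 were above background at week 8 and all 5 at week 0. Of 7 corneal epithelial markers, 4 (PAX6, KRT5, KRT14 and KRT15) were above background at week 8 and 0 at week 0, while KRT3, KRT12 and ALDH3A1 were below it on all 5 arrays, so the keratins that define corneal epithelium were not detected here.

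Across the class II pathway the week 0 array, of the undifferentiated cells, had the most members above background. The numbers were 7 of 9 genes at week 0, 3 at each of weeks 2, 4 and 6, and 5 at week 8. With a detection limit of 0.05 they were 7, 4, 6, 6 and 6 at weeks 0, 2, 4, 6 and 8, so the low counts at weeks 4 and 6 depend on the limit. The signals of the 9 genes, each taken from the probe of highest mean, summed to 2309.2, 1531.4, 1474.9, 1533.3 and 1665.3 at weeks 0, 2, 4, 6 and 8. These sums include the background of each array and were not normalized. The median signal of probes above background was highest on the week 0 array (370.0, against 326.2 at week 6 and 361.0 at week 8). In these bulk samples, fewer cells carrying class II RNA and less of it in each cell cannot be told apart.

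**Figure D2:**
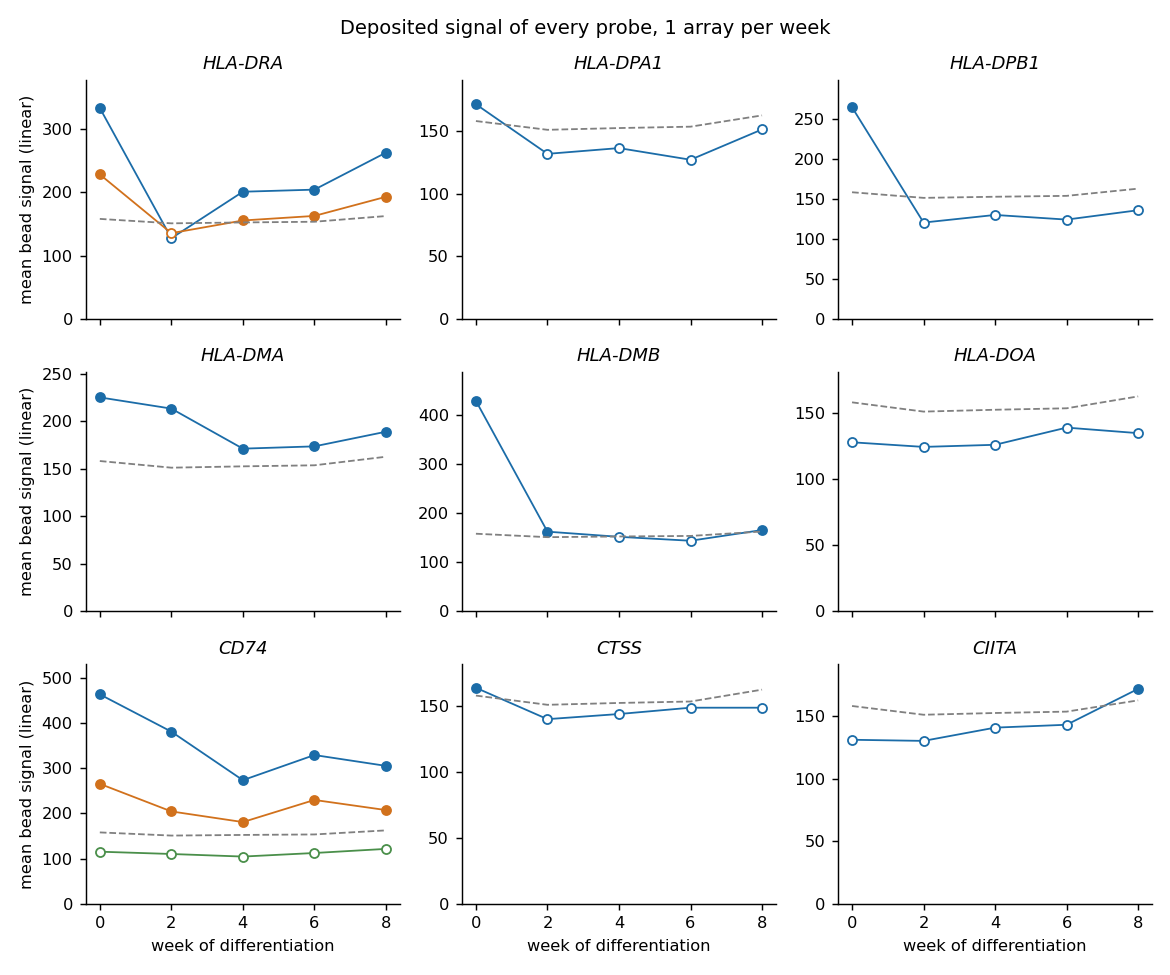
Deposited signal of each of the 12 probes on the linear scale (vertical axes, mean bead signal) against the week of differentiation (horizontal axes, 1 array per week), 1 panel per gene. Filled points are above background, open points are below it, and the dashed line is the lowest signal above background on each array; HLA-DMB and HLA-DPB1 drop to near that line or under it after week 0, and CD74 stays above it on 2 of its 3 probes.

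HLA-DRA encodes the alpha chain of HLA-DR, a class II molecule of antigen-presenting cells. Its main probe had signals of 333.2, 127.6, 201.0, 204.3 and 262.7 at weeks 0, 2, 4, 6 and 8, of which the one at week 2 was below background. It was therefore highest in undifferentiated cells, below the limit at week 2, and measurable again on each later array. After normalization (background correction, quantile normalization and log2), the value at week 2 was at least 4.44-fold lower than at week 0. That is a lower bound, because the dim array was set at its lowest value above background. It holds for this background correction only: without it the value was 1.98-fold, not a call, and with the authors' processed values 2.14-fold. At week 4 it was 2.24-fold lower than at week 0 and at week 6 2.19-fold lower, against 1.55-fold and 1.53-fold without background correction. At week 8 it was 1.73-fold lower (log2 difference -0.79), short of the 2-fold difference that was set as a call.

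The second HLA-DRA probe ran a like course, with 228.3, 135.6, 155.6, 162.8 and 193.0 at weeks 0, 2, 4, 6 and 8 and again a value below background at week 2. Its log2 differences from week 0 were at most -1.33 at week 2 (a bound), then -1.27, -1.12 and -0.87 at weeks 4, 6 and 8. Both probes thus passed 2-fold at weeks 2, 4 and 6 and neither did at week 8. The return between weeks 2 and 4 was at least 1.98-fold on the main probe (log2 0.99), just short of a call, and at least 1.04-fold on the second probe.

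Neither HLA-DP chain was above background at any later week. HLA-DPB1, the beta chain of HLA-DP, had a signal of 264.1 at week 0 and was below background on each later array, with signals of 120.3, 129.8, 124.0 and 135.7 at weeks 2, 4, 6 and 8. Every later array thus read less than the lowest signal above background. Its normalized value was lower than in undifferentiated cells by at least 3.19-fold, 3.25-fold, 3.29-fold and 3.58-fold at weeks 2, 4, 6 and 8. Without background correction these bounds were between 1.62-fold and 1.68-fold, and with the authors' processed values between 1.75-fold and 1.88-fold, under a call in both cases.

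HLA-DPA1, the alpha chain that pairs with it, had a signal of 171.5 at week 0, then 131.9, 136.5, 127.2 and 151.4 at weeks 2, 4, 6 and 8, with all 4 later values below background. The week 0 signal lay so near the limit that the bounds reached only -0.41, -0.44, -0.46 and -0.58 on the log2 scale at weeks 2, 4, 6 and 8. HLA-DPA1 was therefore above background in undifferentiated cells alone, and no 2-fold difference could be shown at this signal. With a limit of 0.05 HLA-DPA1 was also above background at week 8 (detection p-value 0.0429).

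The HLA-DM chains parted from each other. HLA-DMB, the beta chain of HLA-DM, had signals of 428.5, 162.3, 151.8, 143.8 and 165.6 at weeks 0, 2, 4, 6 and 8. Those at weeks 4 and 6 were below background, by little at week 4 (detection p-value 0.0104). At weeks 2 and 8 the gene was above background by a narrow margin. Its normalized value was 4.92-fold lower at week 2 and 6.57-fold lower at week 8 than in undifferentiated cells. At weeks 4 and 6 it was lower by at least 6.29-fold and 6.37-fold. These sizes depend on the background step: over weeks 2, 4, 6 and 8 the values lay between 2.30-fold and 2.52-fold lower without background correction, and between 2.17-fold and 2.43-fold lower with the authors' processed values.

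HLA-DMA, the alpha chain of the same heterodimer, had signals of 225.0, 213.2, 171.1, 173.5 and 188.9 at weeks 0, 2, 4, 6 and 8, and was above background on all 5 arrays. Its log2 differences from week 0 were -0.02, -0.84, -0.82 and -0.90 at weeks 2, 4, 6 and 8, none of them 2-fold. At week 2 HLA-DMA thus differed by -0.02 while HLA-DMB was 4.92-fold lower, and the value of HLA-DMA at week 4 was 1.76-fold lower than at week 2. HLA-DOA, the alpha chain of the HLA-DM inhibitor HLA-DO, was below background on all 5 arrays, with signals between 124.4 and 139.0.

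CD74, the invariant chain, was detected throughout. Its main probe had signals of 463.9, 381.3, 273.8, 329.5 and 305.5 at weeks 0, 2, 4, 6 and 8, all above background. The log2 differences from week 0 were -0.18, -0.94, -0.49 and -1.03 at weeks 2, 4, 6 and 8, and the last of them, 2.04-fold lower, was a call. CD74 was thus lower on each later array, with a dip at week 4 and a part return at week 6. The lowest normalized value of this probe was at week 8.

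A second CD74 probe read 265.7, 204.6, 181.0, 230.0 and 207.6 at weeks 0, 2, 4, 6 and 8. Its log2 differences from week 0 were -0.54, -1.04, -0.32 and -0.99, so on this probe week 4 was the array past 2-fold (2.05-fold lower) and week 8 fell just short of it. Both probes read less at week 4 than at weeks 2 and 6, and they differed in which week passed 2-fold. The third CD74 probe was below background on all 5 arrays.

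CTSS, the protease of the invariant chain, was above background at week 0 (164.0) and below it later, with signals of 140.2, 144.1, 148.9 and 148.9 at weeks 2, 4, 6 and 8. With a limit of 0.05 CTSS was also above background at weeks 2, 4 and 6 (detection p-values 0.047, 0.018 and 0.018). Its bounds lay between -0.22 and -0.39 on the log2 scale, far from 2-fold. CIITA, the coactivator of the pathway, passed the detection limit of 0.01 on the last array alone, and a limit of 0.05 at weeks 4, 6 and 8. Its signals at weeks 0, 2, 4 and 6 were 131.1, 130.2, 140.8 and 143.1, all below background, with detection p-values of 0.0364 and 0.0338 at weeks 4 and 6. The signal at week 8 was 171.8 (detection p-value 0.0026). Because the week 8 signal lay next to the limit, no fold over week 0 can be given, and the difference of the measured normalized values, 0.91 on the log2 scale, rests on a week 0 value that was not above background. On the week 8 array CIITA, HLA-DRA, HLA-DMA, HLA-DMB and CD74 were above background, and HLA-DPA1, HLA-DPB1, HLA-DOA and CTSS were below it.

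**Figure D3:**
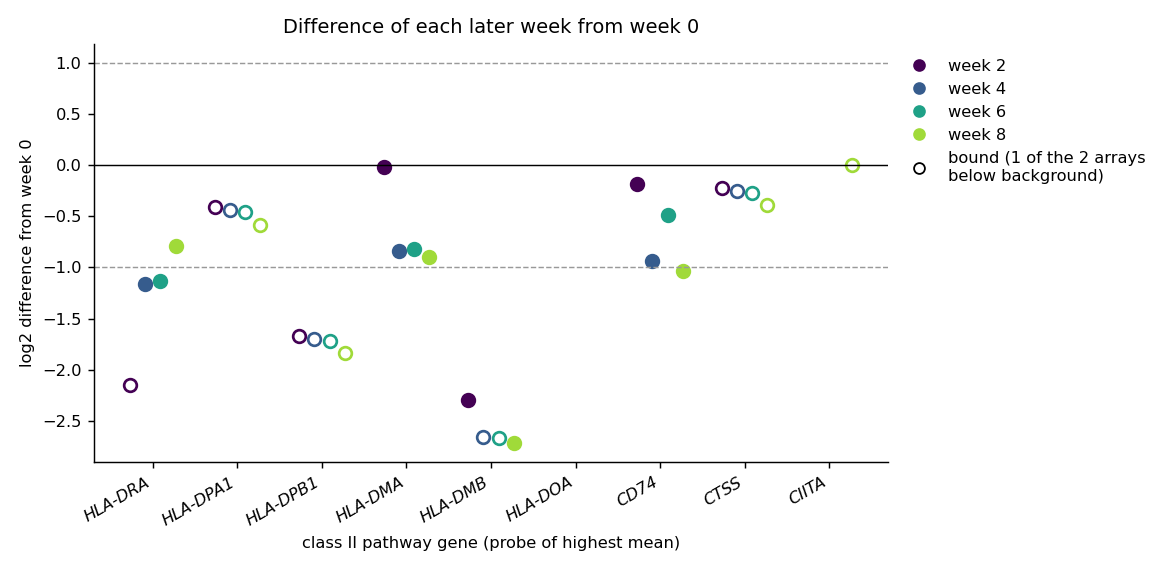
Log2 difference of each later week from week 0 (vertical axis) for the probe of highest mean of each class II gene (horizontal axis), coloured by week. Open points are bounds with 1 array below background, dashed lines mark 2-fold, HLA-DMB and HLA-DPB1 lie past 2-fold lower at all 4 weeks, HLA-DRA does so at weeks 2, 4 and 6, and CD74 at week 8.

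The members' counts were read against all genes measured. At week 2, 3 of 7 measured class II genes (those above background on 1 or both of the arrays compared) were called lower than at week 0 (HLA-DMB, HLA-DPB1 and HLA-DRA), against 9.29% of all 11696 genes measured. The same 3 of 7 were called lower at week 4, where the share of all genes was 11.5%, and at week 6, where it was 14.1%. At week 8, 3 of 8 were called lower (HLA-DMB, HLA-DPB1 and CD74), against 15.4% of 12333 genes. No class II gene was called higher at any week, while 10.7%, 14.0%, 15.8% and 16.8% of all genes were called higher at weeks 2, 4, 6 and 8. These 4 comparisons share the week 0 array, so a high reading of a gene on that single array would lower it in all of them. At weeks 2, 4 and 6, 4 of the 7 measured class II genes were above background on the week 0 array alone. They entered only through the array where they were high and could not be called higher. At week 8 this held for HLA-DPA1, HLA-DPB1 and CTSS. Of all 11696 genes measured at week 2, 2042 were above background on only 1 of the arrays. The class II counts were thus partly fixed by the rule for a measured gene. Without background correction HLA-DMB alone stayed past 2-fold, at all 4 weeks. Of all calls, 53.5%, 54.9%, 52.9% and 52.1% were higher at weeks 2, 4, 6 and 8, and with scaling to a common 75th percentile 46.3%, 41.5%, 39.5% and 41.9% were.

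The median log2 difference of the measured class II genes was -0.41, -0.94, -0.82 and -0.84 at weeks 2, 4, 6 and 8, against -0.02, -0.05, -0.04 and -0.05 for all measured genes. Of the 7 class II genes measured at each of weeks 2, 4 and 6, 4 were above background on only 1 of the 2 arrays. The same was true of 4 of the 8 measured at week 8, so all these values are bounds. The class II median at week 2 is itself such a bound, that of HLA-DPA1. At week 8, 1.08% of all measured genes had a lower difference than HLA-DMB, 4.36% than the bound of HLA-DPB1, 14.7% than CD74, 17.9% than HLA-DMA and 20.7% than HLA-DRA. Between neighbouring weeks, 0 of 4 measured class II genes were called for week 4 against week 2, where 7.27% of all genes were higher and 5.42% lower. The count was 0 of 3 for week 6 against week 4, where 6.23% of all genes were higher and 4.26% lower. For week 8 against week 6 it was 0 of 5, where 1.93% were higher and 1.08% lower.

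**Figure D4:**
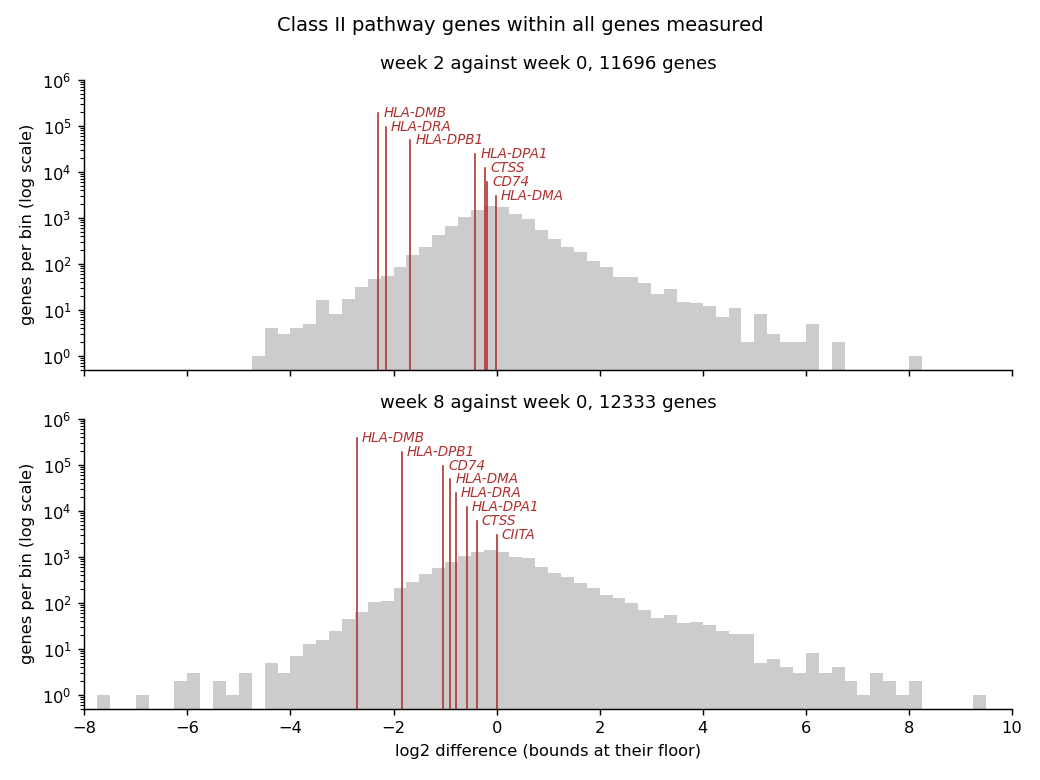
Histograms of the log2 difference of all measured genes (horizontal axis) with the number of genes per bin on a log scale (vertical axis), for week 2 against week 0 and week 8 against week 0. The vertical lines mark the class II genes, with bounds at their floor; most lie left of 0, HLA-DMB at -2.30 (week 2) and -2.72 (week 8).

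Other HLA-D genes on the array, 9 genes with 13 probes, share long stretches with each other and vary between haplotypes, so a probe may miss the H9 allele or read a near-identical copy. Counted by gene, as the members were, 0 of 6 measured at week 2 were called, against 10.7% of all genes higher and 9.29% lower. At weeks 4 and 6, 0 of 5 were called, against 14.0% and 15.8% of all genes higher and 11.5% and 14.1% lower. At week 8, 1 of 5 was called higher and 0 lower, against 16.8% and 15.4% of all genes. By probe, 0 of 8 measured at week 2 were called higher and 1 lower than at week 0. Of 7 probes measured at week 8, 1 was called higher and 0 lower, and 5 of the 7 had differences below 0.

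The genes whose course over weeks 2, 4, 6 and 8 was most like that of CD74 and of HLA-DMB were found by the root mean square distance of log2 differences from week 0. Among 9048 other genes above background on all 5 arrays, UBE3D lay nearest to CD74 at 0.083, followed by PECR at 0.107, TMCO6 at 0.116 and EFCAB11 and AFMID, both at about 0.126. Among 9049 genes, LINC00652 lay nearest to HLA-DMB at 0.17, then SORL1 at 0.243, PHC1 at 0.246, UGT8 at 0.26 and KCTD13 at 0.279. HLA-DMB was below background at weeks 4 and 6, so its profile holds bounds there and these distances and their order are approximate. PHC1, a subunit of a Polycomb repressive complex, differed from week 0 by -2.61, -2.37, -2.42 and -2.75 at weeks 2, 4, 6 and 8, against -2.30, at most -2.65, at most -2.67 and -2.72 for HLA-DMB. The likeness is one of shape over 5 arrays and says nothing of a shared function.

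The DNA-binding complex that CIITA works through was detected throughout. RFX5, the X box-binding subunit whose loss in people abolishes class II expression, had signals of 1065.9, 1222.0, 1158.2, 969.5 and 1031.3 at weeks 0, 2, 4, 6 and 8 and differed by -0.05 on the log2 scale at week 8 from week 0. Its partners RFXAP and RFXANK differed by -0.48 and -0.07 (other RFXANK probes by -0.13 and -1.02), and the Y box-binding subunits NFYA, NFYB and NFYC by -0.12, -0.45 and 0.13. This list also holds coactivators and histone modifiers. Of its 13 measured genes, 0 were called at week 8 in either direction, with a median of -0.12. The shares over all genes were 16.8% higher and 15.4% lower. With scaling to a common 75th percentile 1 gene was called lower, and with averaged probes the median was -0.41. EZH2, a methyltransferase known to silence the CIITA gene in some cell types, differed by 0.16 on its main probe and by -1.11 and -1.85 on other probes, so its direction was not settled.

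Other endosomal proteases and the thiol reductase of antigen processing formed the next list. At week 8, 3 of 10 measured genes were higher than at week 0 and 1 was lower, with a median of 0.39. The shares over all genes at week 8 were 16.8% higher and 15.4% lower, and they apply to each list that follows. CTSA, the lysosomal protective protein, had signals of 443.7, 941.3, 1027.2, 1588.8 and 2105.2 at weeks 0, 2, 4, 6 and 8 and was 5.75-fold higher at week 8 than at week 0. CTSB, a broad lysosomal cysteine protease, was 5.03-fold higher, with signals of 178.4, 303.4, 296.2, 444.5 and 535.5. CTSL, which takes the place of CTSS in cutting the invariant chain in thymic epithelium of mice, was 2.51-fold higher, although its other probes differed by 1.51 and -0.85 on the log2 scale.

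CTSC, an activator of granule proteases, was 2.75-fold lower at week 8 than at week 0, and its other probes differed by -0.97, -1.59 and 0.10. IFI30, the reductase that opens disulphide bonds of antigens, was past 2-fold lower at weeks 2 (-1.02) and 4 (-1.13), and at week 8 its difference was 0.41. Among genes of class II traffic, 5 of 12 measured were higher at week 8 than at week 0 and 0 lower, with a median of 0.86. The counts were 3 higher and 1 lower with averaged probes and with scaling to a common 75th percentile. HSPA8, a chaperone of clathrin coats, differed by -0.99 on its main probe and by -1.16 on another. The 5 higher genes were the lysosomal membrane proteins LAMP1 (3.91-fold) and LAMP2 (3.07-fold, with other probes between -0.25 and 1.32 on the log2 scale), the adaptor subunit AP1M1 (2.36-fold), the late endosome GTPase RAB7A (2.25-fold) and the tetraspanin CD82.

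CD74 also acts at the cell surface as a receptor for the cytokine MIF, with CD44 and CXCR4 as partners. CD44 had signals of 156.1 (below background), 159.6, 242.8, 894.8 and 1769.8 at weeks 0, 2, 4, 6 and 8, and was at least 29.5-fold higher at week 8 than at week 0 (log2 4.88). The log2 difference of CD44 was 1.68 averaged over its probes and 3.19 with the authors' processed values. CXCR4 was at least 2.82-fold higher, and MIF differed by -0.11 (log2). Averaged over its probes CXCR4 differed by -0.02, so it was no longer called. The list counted 2 of 3 measured genes higher and 0 lower.

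Interferon gamma signalling was described because it is the usual inducer of CIITA in epithelium. At week 8, 3 of 11 measured genes were higher than at week 0 and 2 lower, with a median of 0.41, and without background correction 2 were higher and 0 lower. IFNG, the ligand itself, had signals of 658.6, 552.6, 466.1, 586.5 and 753.7 at weeks 0, 2, 4, 6 and 8, all above background. It differed by 0.18 at week 8. These values rest on 1 probe, and whether that probe reads IFNG RNA alone was not tested. GBP1, an interferon-induced GTPase, had signals of 146.2 (below background), 198.5, 287.5, 1100.7 and 2499.6 at weeks 0, 2, 4, 6 and 8, and was higher at week 8 than at week 0 by at least 5.43 in log2 units. IRF8, a transcription factor of the interferon response, was 2.69-fold higher, and IFNGR1, the ligand-binding receptor chain, 2.65-fold higher. PTPN2, a phosphatase that dampens JAK signalling, was 3.22-fold lower, and SOCS1, an inhibitor of the same kinases, was 2.62-fold lower. IRF1, which binds the interferon-responsive promoter of CIITA, differed by 0.41, and JAK2, IFNGR2, CXCL10 and GBP2 were below background at weeks 0 and 8.

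A list of candidate repressors of class II or CIITA held 4 measured genes at week 8, of which 3 were higher than at week 0 and 1 lower, with a median of 1.15. The number of higher genes was 1 without background correction, with averaged probes and with the authors' processed values. MITF, a factor of pigment cells, was at least 9.13-fold higher, the histone deacetylase HDAC5 was 2.26-fold higher, and PRDM1, which shuts down CIITA in plasma cells, was at least 2.17-fold higher. MYCN, a transcription factor of the MYC family, was 3.72-fold lower. Averaged over their probes MITF differed by 0.33 and PRDM1 by -0.30, so neither was then called. Of the T cell co-stimulatory genes, 4 were measured, 0 were higher and 1 was lower: CD40, a receptor of helper T cell signals, was 2.19-fold lower at week 8 than at week 0. CD80 and ICAM1 were below background at weeks 0 and 8, and so were the inhibitory ligands CD274 and PDCD1LG2, which the list also held.

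**Figure D5:**
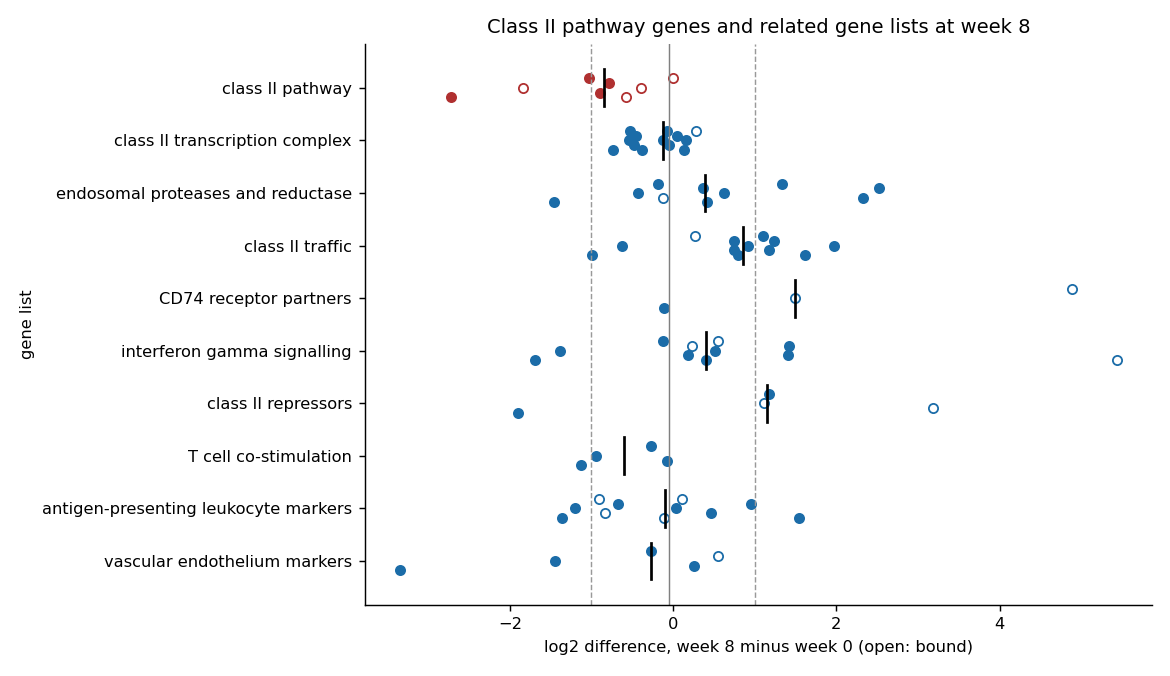
Log2 difference at week 8 minus week 0 (horizontal axis) of each measured gene of the class II pathway and of the related gene lists (vertical axis), with the median of each list as a bar and open points for bounds. The class II median lies at -0.84, the transcription complex at -0.12, the endosomal proteases at 0.39 and class II traffic at 0.86.

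Other cells that carry class II were looked for through their markers. Of 22 leukocyte markers with a named probe, 9, 9, 7, 8 and 9 were above background at weeks 0, 2, 4, 6 and 8, and their summed signal ranged from 6474.0 (week 4) to 7264.0 (week 8), with 6779.9 at week 0. Of the 22, 10 were below background on all 5 arrays: PTPRC, CSF1R, TYROBP, FCER1G, CD163, CD1C, CLEC9A, MS4A1, CD37 and CD48. On all 5 arrays ITGAX, ITGAM, CD68, LAPTM5 and CD79B were above background. LYZ, CORO1A and AIF1 were above background at weeks 0 and 2 and below it at weeks 4 and 6. AIF1 was above it again at week 8. Other markers went the other way: SPI1 was above background at weeks 4, 6 and 8 alone. CD14 was so at weeks 4 and 6 alone, and CD53 at week 8 alone. At week 8, 1 of 11 measured leukocyte markers was higher than at week 0 (ITGAM, 2.91-fold). Another 2 were lower (LAPTM5, 2.57-fold, and CD79A, 2.29-fold). The median was -0.11, and 0.04 with the authors' processed values. With averaged probes 2 markers were higher and 1 lower. CD68 differed by 0.46 on its main probe and by 2.67 on another, on the log2 scale. Of 9 vascular endothelium markers, 4, 6, 6, 6 and 5 were above background at weeks 0, 2, 4, 6 and 8.

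The summed signal of the endothelial markers was 4078.0 at week 0, 3416.6, 3203.5 and 3077.7 at weeks 2, 4 and 6, and 3655.2 at week 8. A sum highest at week 0 was not particular to this list. The class II genes, the transcription complex and the candidate repressors also had it, while the leukocyte, traffic and protease lists were highest at week 8. These sums were not normalized, and the week 0 array had the highest median signal of probes above background. TEK, an endothelial receptor kinase, was 10.1-fold lower at week 8 than at week 0, with signals of 175.1 at week 8 and 707.5 at week 0, and ESAM, an adhesion molecule of endothelial junctions, was 2.72-fold lower. EMCN, a sialomucin of endothelium, had 2073.4 at week 8 and 1883.5 at week 0, and ERG differed by -0.28 on the log2 scale. CDH5 and VWF were below background at week 0 and higher at week 2 by at least 1.26 and 1.41 on the log2 scale, and KDR was above background at weeks 6 and 8 alone. The list thus held members that were lower and members that were higher than at week 0. The part of these markers in the class II values was not tested.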

How the data were processed

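Of the deposited tables, the first holds the intensity of each probe (mean over its beads, linear scale, per the file headers). Its detection score, a deposited fraction from 0 to 1, increases with signal, so 1 minus the score was taken as the detection p-value. A second table gives the authors' processed intensity for these arrays and served as an alternative. Per the labels, Trizol RNA was column-cleaned, treated with DNase and made into biotin-labelled cRNA. The scanner software was not given in the sources used here.

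Intensities were processed with neqc in limma 3.58.1 (R 4.3.3): normal-exponential background correction from the detection p-values, an offset of 16, quantile normalization and log2. Above background means a detection p-value under 0.01. A value below it was set at the higher of itself and the lowest log2 value above background on that array, which makes a fold a lower bound ("at least"). A gene took its probe of highest mean. A call is a difference of at least 2-fold with the brighter array above background, and a gene was measured in a comparison where 1 of the 2 arrays was above background. Of 47317 probes, 30110 had 1 symbol in the platform annotation, 8 several and 17199 none; 30071 were updated through Entrez identifiers. Later steps used Python 3.11.15, pandas 2.3.3 and numpy 2.4.6, and the calling steps were tested on simulated arrays.

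The members, the gene lists, the size of a call and the alternatives were chosen with earlier results of these data known. The text names every member and probe, the other HLA-D genes as counts, up to 4 called genes of each list with the largest week 8 difference, and the 5 nearest profiles of each member called at week 8 and above background on both arrays. Uncalled list genes, and called genes beyond those 4 (CD82, SOCS1, and CDH5 and VWF at week 2), were added with their values in view. In 7 alternatives the authors' processed values were used, background correction was left out, probes of a gene were averaged, each array was scaled to the same 75th percentile, the offset was 50, the detection limit was 0.05, or a gene had to be above background on every array.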

Additional observations from a re-analysis of the deposited data

How the results depend on the processing

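HLA-DMB was at least 2-fold lower than at week 0 at all 4 later weeks under each alternative that gave it a value. The calls of HLA-DPB1, HLA-DRA and CD74 depend on the background step. Without background correction the class II genes called lower numbered 1 at each week (HLA-DMB), against 3 in each comparison as reported. With the authors' processed values they numbered 2 at week 2 and 1 at weeks 4, 6 and 8, and with an offset of 50 they numbered 3, 2, 2 and 2. Among genes above background on all 5 arrays, which leaves CD74 and HLA-DMA, they numbered 0 at weeks 2, 4 and 6 and 1 at week 8. With the mean of a gene's probes CD74 was no longer called at week 8. With a detection limit of 0.05 HLA-DRA was called higher at week 4 than at week 2 (1 gene). No called member turned its direction under any alternative.

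Over all genes, those higher at weeks 2, 4, 6 and 8 numbered 602, 931, 1099 and 1197 without background correction and 648, 983, 1145 and 1243 with the authors' values, against 1247, 1657, 1903 and 2068 as reported. Those lower numbered 450, 559, 787 and 943, and 456, 590, 806 and 945, against 1086, 1362, 1693 and 1900. Among genes above background on all 5 arrays, 816 were higher at week 2 and 1319 at week 8. Scaling to a common 75th percentile moved the share of higher calls to 46.3%, 41.5%, 39.5% and 41.9%, against 53.5%, 54.9%, 52.9% and 52.1%, with all-gene medians of -0.11, -0.19, -0.19 and -0.21; at this scaling CD74 was also called lower at week 4, and AP1M1, RAB7A and CTSL were no longer called at week 8. Without background correction CD40, IRF8, PTPN2, SOCS1, HDAC5, PRDM1, CXCR4, CD82, CD79A and ESAM fell short of 2-fold at week 8. List medians changed sign for leukocyte markers (0.04 with the authors' values, 0.46 with genes above background on all 5 arrays), CD74 partners (-0.02 with averaged probes, -0.11 with that filter) and candidate repressors (-0.36 with that filter).

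No paired analysis was possible because each week is 1 array. The number of arrays limits the precision, and no spread between cultures is known. The median signal of probes above background was only 2.62 to 2.90 times that of probes below it. HLA-DPA1 (171.5) and CTSS (164.0) at week 0 lay near the lowest signal above background there (158.1). CIITA at week 8 (171.8) lay near that of its array (162.6). With values below background set at that floor, these genes cannot show a 2-fold difference.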
